A study of Mus musculus with 12 samples.

Results

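Retnla, Chil3, Chil4, Ear2 and Rnase2a encode secreted proteins that alternatively activated mouse macrophages are known to release. They were chosen by symbol as the resistin-like, chitinase-like and eosinophil-type ribonuclease genes of the IL-4 response, and all 5 were found among the 14098 genes of the deposited expression table. All 5 also passed the filter, a minimum of 1 TPM in 2 or more of the 12 libraries, which left 11194 genes for testing. TPM, a length-corrected share of a library's transcripts, is scaled to the same total in each library, so that levels of different genes can be set side by side. Because every value comes from a bulk library, fewer producing cells and less RNA per cell cannot be told apart.

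In macrophages, IL-4 binds a receptor made of IL-4Rα (Il4ra) and the common γ chain (Il2rg), which passes the signal through Janus kinases to the transcription factor STAT6. Retnla encodes RELMα (also called FIZZ1), a small cysteine-rich protein of the resistin family. Chil3 and Chil4 encode Ym1 and Ym2, which resemble chitinases but lack chitinase activity, and Ear2 and Rnase2a belong to the rodent family of eosinophil-associated ribonucleases, part of the RNase A family.

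The study asked how matrix stiffness acts on macrophage activation and whether the kinase CaMKK2 takes part. Bone marrow-derived macrophages (BMDM) were grown in L929-conditioned medium from the marrow of wild type (WT) and Camkk2-/- (KO) C57Bl/6 mice of both sexes, aged 8 to 10 weeks, and were embedded in collagen-hyaluronic acid hydrogels. Each genotype was cultured in the soft gel, in the soft gel with IL-4 (soft+IL-4) or in the stiff gel, giving 6 groups of 2 libraries. The stiff gel was crosslinked 24 h after encapsulation, the cells were kept for a further 48 h, and all cells were released with 400 U/mL collagenase before RNA was extracted.

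Several features limit the groups as models. The labels give the KO allele as Camkk2-/- and name no cell type or time for the deletion. For its mouse experiments the paper calls the Camkk2-/- mice germline. According to the study's methods the stiff gel received ultraviolet light and a photoinitiator and held more collagen than the soft gel. In these libraries, stiffness and these treatments therefore cannot be told apart. The paper reports separate controls, read by CD206 and MHC-II, in which neither ultraviolet light nor more collagen without crosslinking changed the macrophage phenotype. No stiff gel received IL-4. The labels call the 2 libraries of a group biological replicates, but which mice they came from is not given in the sources used here, so p-values measure the spread between these libraries.

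Camkk2, the deleted gene, went against the labels in 3 libraries. Among the libraries labelled WT, its level was 44.2 and 11.7 TPM for soft, 30.5 and 29.8 TPM for soft+IL-4, and 23.3 and 23.7 TPM for stiff. Among those labelled KO, it was 46.6 and 11.5 TPM for soft, 11.5 and 8.54 TPM for soft+IL-4, and 37.7 and 10.0 TPM for stiff. The library labelled WT soft 2 therefore lay at the level of the low KO libraries, whereas those labelled KO soft 1 and KO stiff 1 lay above every WT library outside WT soft. Gene-level TPM does not show which exons were read. Libraries are named here as labelled, and comparisons of the 5 genes with the soft gel or between genotypes in the soft or stiff gel are also given without these 3. The libraries numbered 1 listed 10.7% to 13.4% of genes at 0 and those numbered 2 listed 5.90% to 7.54%, with 1 library of each number in every group. WT stiff 1 stood apart as the highest library for all 5 genes, and comparisons of the 5 genes with the stiff gel are also given without it. Such fits leave only WT stiff 2 in its group, a library close to WT soft+IL-4 2. In these libraries, in that order, Retnla was 7919 and 7096 TPM, Chil3 1669 and 1911 TPM and Chil4 12.2 and 10.9 TPM. Ear2 was 210 and 231 TPM and Rnase2a 619 and 679 TPM. Socs1 (123 and 123 TPM) and Arg1 (42.6 and 40.3 TPM), which rose most with IL-4 in their lists below, were also close. The reason was not tested.

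The labelled cell type was checked against marker lists. All 9 macrophage markers were measured, and their summed level was 51624 to 58143 TPM in the soft gel, 23799 to 25751 TPM with IL-4, 23987 to 24909 TPM in WT stiff and 46138 to 48764 TPM in KO stiff. The 9 monocyte markers, all measured, followed the same order, with sums of 145 to 172 TPM in the soft gel, 44.4 to 53.2 TPM with IL-4, 53.0 to 83.8 TPM in WT stiff and 129 to 140 TPM in KO stiff. Both lists were thus lower in the groups in which the 5 genes were higher, and their part in the results was not tested. Eosinophils are known for the ribonucleases described here, but the 5 analysed of 9 eosinophil markers summed to 5.35 to 9.67 TPM in every library, and Prg2, which encodes an eosinophil granule protein, reached at most 1.80 TPM and was listed at 0 in 3 libraries. The 12 analysed neutrophil markers summed to 124 to 220 TPM. The highest of them were Csf3r (up to 122 TPM), Mmp8 (71.1 TPM), S100a8 (19.9 TPM) and S100a9 (9.71 TPM), and the other 8, among them the granule genes Elane, Mpo, Ctsg and Prtn3, reached at most 1.57 TPM. Summed markers were 0.887 to 3.27 TPM for mast cells or basophils (7 of 11 measured), 0.865 to 4.81 TPM for B cells (8 of 9) and 0 to 0.585 TPM for erythroid cells (2 of 9).

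Close copies bear on how the reads of these genes could be assigned, so their sequences are shown first. In the GENCODE vM21 transcripts (GRCm38), the coding sequences of Chil3 and Chil4 were identical at 94.4% of aligned positions, and their transcripts shared 470 of 1509 windows of 31 bases. The first 60 coding bases of both differed at 1 position, in capitals here:

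Chil3: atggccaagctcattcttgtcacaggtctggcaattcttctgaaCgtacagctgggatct

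Chil4: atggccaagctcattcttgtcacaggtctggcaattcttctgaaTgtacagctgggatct

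Ear2 and Rnase2a were less alike, with 79.8% identity in the coding sequence and 6 differences, in capitals, within the first 60 coding bases:

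Ear2: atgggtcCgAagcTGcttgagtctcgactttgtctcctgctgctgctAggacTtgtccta

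Rnase2a: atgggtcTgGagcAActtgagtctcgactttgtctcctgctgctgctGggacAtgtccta

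The nearest copies of Ear2 were Ear10, with 97.0% coding identity, and Ear1, with 95.1%. Of all windows of 31 bases in its transcript, 39.5% occurred in no other gene for Ear2, against 55.2% for Chil3, 64.6% for Chil4, 93.6% for Rnase2a and 94.6% for Retnla. The levels of Chil3, Chil4 and Ear2 are therefore uncertain to the extent that reads from their copies were shared out, whereas Retnla and Rnase2a rest mostly on sequence of their own. Retnlg, the resistin-like gene closest to Retnla at 71.3% coding identity, was listed at 0 in 10 libraries.

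Retnla had the highest level of the 5 genes in every library. In the soft gel it was 424 and 223 TPM in the WT libraries and 434 and 242 TPM in the KO libraries. With IL-4 it was 7138 and 7096 TPM in WT and 8488 and 8355 TPM in KO. In the stiff gel it was 21525 and 7919 TPM in WT and 2016 and 2092 TPM in KO. The 4 soft+IL-4 libraries and the 4 stiff libraries all lay above the 4 soft libraries. Retnla took rank 2 among all genes in WT stiff 1 and ranks 8 to 12 in the soft+IL-4 libraries, compared with ranks 325 to 605 in the soft gel. The KO stiff libraries lay between the soft and the soft+IL-4 libraries and did not overlap with either.

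Retnla lies at chr16:48842551-48844461 on the plus strand (GRCm38) and has 4 exons. Its promoter is printed because of the members it carries the only 10-base match to the spaced palindrome known to be preferred by STAT6, in capitals, followed by a match to a C/EBP half-site pattern, also in capitals. The window, from RefSeq (GRCm38.p6), runs over chr16:48842359-48842550, upstream of the first annotated start:

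Retnla upstream: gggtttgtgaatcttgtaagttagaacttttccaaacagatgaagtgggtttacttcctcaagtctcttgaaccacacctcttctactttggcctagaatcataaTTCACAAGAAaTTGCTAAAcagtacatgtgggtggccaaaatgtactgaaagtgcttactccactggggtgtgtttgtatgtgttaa

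The STAT pattern TTCNNNNGAA began 87 bases before that start and occurs, on both strands, in 6.95% of 32851 RefSeq promoter windows of 300 bases. The pattern TTGCNNAA began 76 bases before the start and occurs in 10.8% of windows. Both are matches of letters, and no binding was measured here.

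Chil3 followed the same order of conditions at lower levels. In the soft gel it was 110 and 35.4 TPM in WT and 107 and 37.1 TPM in KO. With IL-4 it reached 1926 and 1911 TPM in WT and 1341 and 1256 TPM in KO. In the stiff gel it was 7681 and 1669 TPM in WT and 540 and 322 TPM in KO. As for Retnla, every stiff and every soft+IL-4 library lay above every soft library, and both KO stiff libraries lay below all 4 soft+IL-4 libraries. In the soft gel the library numbered 1 was 3.12 times the other in WT and 2.89 times the other in KO, whereas the 2 soft+IL-4 libraries of a genotype differed by at most 1.07 times.

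Chil4 was much lower than its neighbour. Its level was 0.197 and 0.135 TPM in WT soft and 0.474 and 0.141 TPM in KO soft, below the 1 TPM used as a filter. With IL-4 it was 13.9 and 10.9 TPM in WT and 13.1 and 11.5 TPM in KO. In the stiff gel it was 65.7 and 12.2 TPM in WT and 4.42 and 2.27 TPM in KO. Chil4 thus passed the filter only through the soft+IL-4 and stiff libraries, and its fold change on the log2(TPM + 1) scale understates the change. The 2 genes lie on the minus strand of chromosome 3, Chil3 at chr3:106147554-106167564 and Chil4 at chr3:106201490-106219507, each with 11 exons.

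Their upstream sequences are shown because the 2 genes moved together and are copies of each other here too, with 76.3% identity over the promoter windows. The capitals mark TTCTTAGAA, a match to the shorter STAT pattern TTCNNNGAA, and in Chil4 a further match to TTGCNNAA on the opposite strand, TTCAGCAA. The windows are chr3:106167565-106167814 for Chil3 and chr3:106219508-106219729 for Chil4:

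Chil3 upstream: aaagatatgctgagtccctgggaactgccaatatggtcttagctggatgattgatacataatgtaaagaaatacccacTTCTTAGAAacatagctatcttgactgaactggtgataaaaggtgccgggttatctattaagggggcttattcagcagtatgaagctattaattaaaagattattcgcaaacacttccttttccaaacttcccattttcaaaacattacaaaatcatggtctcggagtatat

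Chil4 upstream: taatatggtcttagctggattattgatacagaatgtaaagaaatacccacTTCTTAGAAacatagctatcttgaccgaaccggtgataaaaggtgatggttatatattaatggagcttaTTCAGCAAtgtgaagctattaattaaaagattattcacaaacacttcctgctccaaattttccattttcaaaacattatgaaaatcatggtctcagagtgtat

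TTCTTAGAA began 172 bases before the first annotated start of either gene. TTCNNNGAA occurs in 8.30% of the promoter windows. No match to TTCNNNNGAA was found in either window, which says only that these letters are not there.

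The ratio of the copies was not the same in all libraries. Chil4 was 0.179 to 0.442 TPM per 100 TPM of Chil3 in the 4 soft libraries, 0.568 to 0.978 in the 4 soft+IL-4 libraries and 0.703 to 0.855 in the 4 stiff libraries. All 8 libraries with IL-4 or the stiff gel lay above all 4 soft libraries. The Chil4 values in the soft gel are all under 1 TPM, which limits the ratio there, and whether reads of Chil3 were assigned to Chil4 was not tested.

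**Figure D1:**
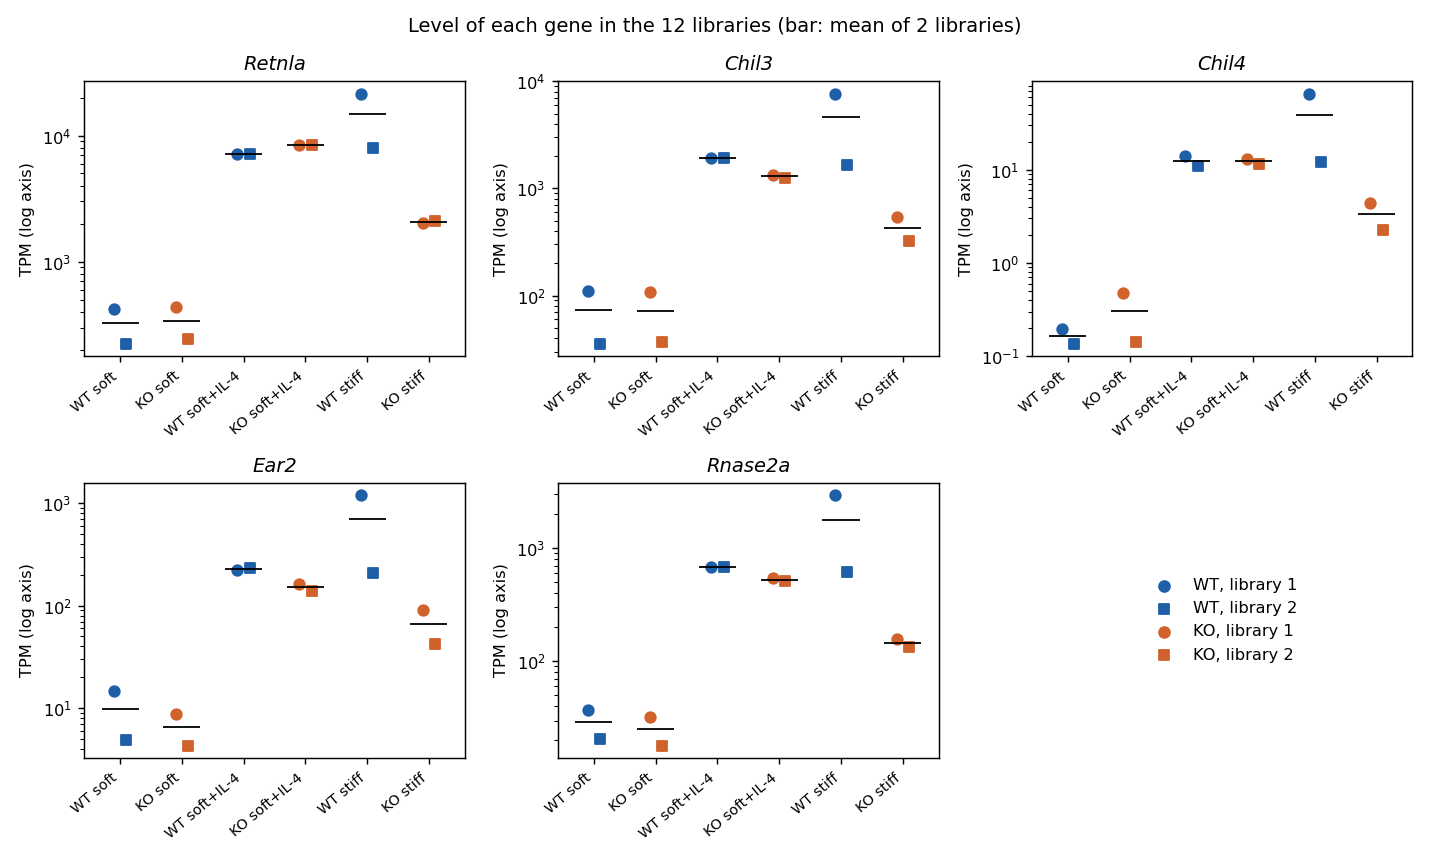
TPM of each gene in the 12 libraries, on a log axis, by genotype and condition, with circles for libraries numbered 1, squares for those numbered 2 and a bar at the mean of each group. All soft libraries lie below all soft+IL-4 and stiff libraries, WT stiff 1 is the highest library in each panel (21525 TPM for Retnla, 65.7 TPM for Chil4), and both KO stiff libraries lie between the soft and the soft+IL-4 libraries.

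Rnase2a was the more abundant of the 2 ribonuclease genes in every library. In the soft gel it was 37.5 and 20.5 TPM in WT and 32.4 and 18.0 TPM in KO. With IL-4 it was 674 and 679 TPM in WT and 542 and 513 TPM in KO. In the stiff gel it was 2926 and 619 TPM in WT and 157 and 133 TPM in KO. By mean level its groups were ordered as those of Chil3, and its 2 KO stiff libraries differed by 1.18 times only, although Camkk2 differed between them as described above.

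Ear2 was 14.7 and 4.81 TPM in WT soft and 8.81 and 4.29 TPM in KO soft. With IL-4 it was 221 and 231 TPM in WT and 164 and 139 TPM in KO. In the stiff gel it was 1202 and 210 TPM in WT and 89.8 and 42.5 TPM in KO. Soft libraries were again below all others, and WT stiff 1 was 5.73 times WT stiff 2, the widest gap of any of the 5 genes within a group. Ear2 lies at chr14:44102654-44103534 on the plus strand and Rnase2a at chr14:51255262-51256112 on the minus strand, each with 2 exons.

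The upstream windows of the 2 ribonuclease genes are printed because they lack both STAT patterns and share only a C/EBP half-site match, in capitals. They are chr14:44102404-44102653 for Ear2 and chr14:51256113-51256362 for Rnase2a, with 64.6% identity over the full promoter windows:

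Ear2 upstream: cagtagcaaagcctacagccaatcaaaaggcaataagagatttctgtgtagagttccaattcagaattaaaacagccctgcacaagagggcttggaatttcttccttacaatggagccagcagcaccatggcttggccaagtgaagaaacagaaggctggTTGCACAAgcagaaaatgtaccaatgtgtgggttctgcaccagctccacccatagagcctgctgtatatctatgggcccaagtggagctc

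Rnase2a upstream: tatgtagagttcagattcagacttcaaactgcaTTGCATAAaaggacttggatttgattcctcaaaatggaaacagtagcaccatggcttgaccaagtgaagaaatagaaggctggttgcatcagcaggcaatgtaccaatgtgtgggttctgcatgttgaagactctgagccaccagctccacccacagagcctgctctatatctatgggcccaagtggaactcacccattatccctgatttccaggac

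The match TTGCACAA began 90 bases before the start of Ear2 and TTGCATAA began 217 bases before that of Rnase2a. The absence of a STAT match in 300 bases says nothing on binding elsewhere.

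Ear2 was 23.5 to 39.3 TPM per 100 TPM of Rnase2a in the soft gel, 27.1 to 34.1 with IL-4 and 31.9 to 57.3 in the stiff gel, so that the soft range overlapped with both others, whereas for the chitinase-like pair it overlapped with neither. The highest ratio was in KO stiff 1 and not in WT stiff 1, where Ear2 itself was highest.

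**Figure D2:**
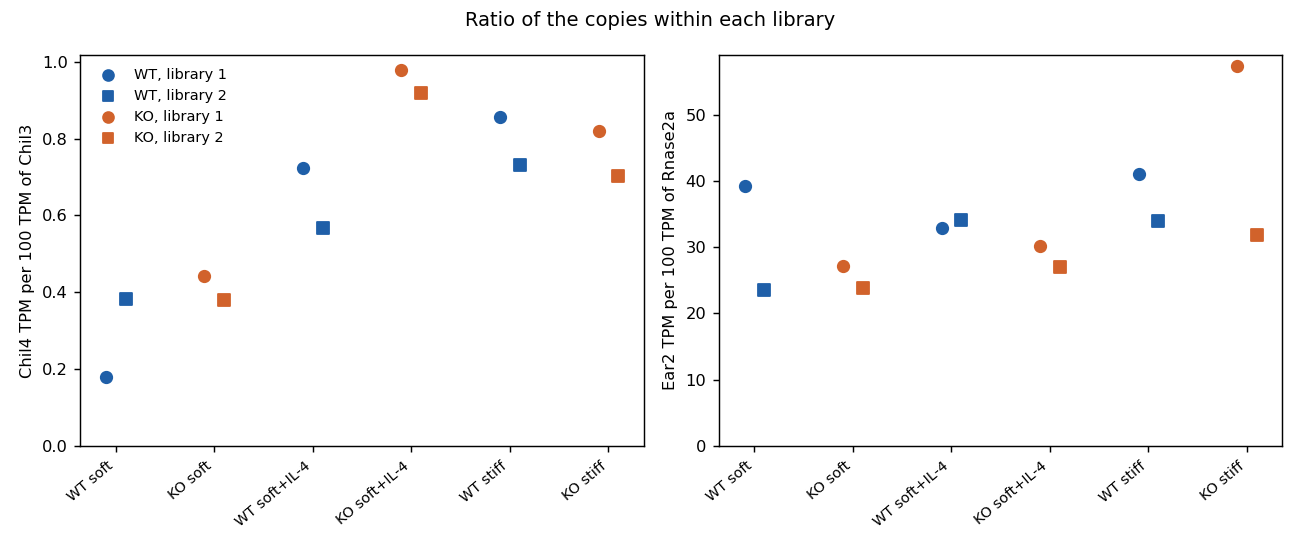
TPM of Chil4 per 100 TPM of Chil3 (left) and of Ear2 per 100 TPM of Rnase2a (right) in each of the 12 libraries, with symbols as in the plot of levels. The Chil4 ratio is 0.179 to 0.442 in the soft libraries and 0.568 to 0.978 in the others, while the Ear2 ratios of the 3 conditions overlap.

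IL-4 in the soft gel raised Retnla, Chil3, Ear2 and Rnase2a in both genotypes, and Chil4 was higher too. Ratios of the group means ran from 22.0 for Retnla to 74.5 for Chil4 in WT and from 18.0 for Chil3 to 40.1 for Chil4 in KO. On the log2(TPM + 1) scale, with limma and Benjamini-Hochberg adjustment over all genes, the differences averaged over both genotypes were 4.61 ± 0.32 (SE, adjusted p = 1.4e-05) for Retnla, 4.63 ± 0.53 (adjusted p = 0.000299) for Chil3 and 3.44 ± 0.42 (adjusted p = 0.000438) for Chil4. Those of the ribonuclease genes were 4.48 ± 0.53 (adjusted p = 0.000371) for Ear2 and 4.47 ± 0.42 (adjusted p = 9.29e-05) for Rnase2a. Retnla, Chil3, Ear2 and Rnase2a, which were above the filter in the soft gel too, were called higher (adjusted p under 0.05 and a difference of at least 1), as were 1.87% of all genes tested. Chil4 was also called, but it entered the test only through the groups in which it was high, so its call against the soft gel is given as a description, here and below (with no filter on low values the adjusted p was 0.00122). For each of the other 4 the 4 soft+IL-4 libraries lay above the 4 soft libraries, which held for 15.7% of genes. Within WT, these 4 were called higher, by 4.53 (Retnla) to 4.91 (Chil3), beside 1.59% of genes, and Chil4 differed by 3.51. Within KO, they were called higher by 4.34 (Chil3) to 4.69 (Retnla), beside 1.56% of genes, and Chil4 differed by 3.36. Without WT soft 2, KO soft 1 and KO stiff 1, the averaged differences were 3.51 to 4.60 and the calls were kept, but single groups then held 1 soft library each, and 1 of the genes (Retnla) was called in WT and 2 (Retnla and Chil3) in KO.

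The stiff gel, compared with the soft gel, also raised Retnla, Chil3, Ear2 and Rnase2a when both genotypes were averaged, and Chil4 was again higher. The differences were 4.03 ± 0.32 (SE, adjusted p = 0.000143) for Retnla, 4.26 ± 0.53 (adjusted p = 0.00178) for Chil3 and 3.18 ± 0.42 (adjusted p = 0.00234) for Chil4, by limma. For Ear2 the difference was 4.42 ± 0.53 (adjusted p = 0.00149) and for Rnase2a 4.04 ± 0.42 (adjusted p = 0.000634). Retnla, Chil3, Ear2 and Rnase2a were called, against 0.75% of genes called higher, and for these 4 the stiff libraries lay above the soft libraries without overlap, as for 4.31% of genes. Chil4 met the same limits, with the reserve given above (adjusted p = 0.00545 with no filter). Leaving out WT stiff 1 lowered the averaged differences to between 2.60 (Chil4) and 3.79 (Ear2), and the calls were kept. Leaving out the 3 libraries at odds with their Camkk2 label kept the sizes at 3.08 to 4.05, with 1 gene called (Retnla, adjusted p = 0.0272).

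In WT alone, the group means in the stiff gel were 45.5 times those in the soft gel for Retnla, 64.1 for Chil3, 72.2 for Ear2, 61.1 for Rnase2a and 234 for Chil4, whose soft level is under 1 TPM. Retnla, Chil3, Ear2 and Rnase2a were called higher, by 5.40 (Retnla) to 5.81 (Chil3), and so were 1.73% of genes, while Chil4 differed by 4.67. Without WT stiff 1 only WT stiff 2 is left in its group. The differences were then 4.68 for Retnla, 4.71 for Chil3, 3.50 for Chil4, 4.46 for Ear2 and 4.43 for Rnase2a. With only the 4 WT libraries of these groups in the fit, which then takes its spread from them alone, none of the 5 was called (adjusted p from 0.0628 for Retnla to 0.126 for Chil4). Without the 3 libraries at odds with their label, which leaves 1 WT soft library, 1 gene was called (Retnla, 4.94, adjusted p = 0.0188).

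In KO alone, the stiff means were 5.75 (Rnase2a) to 10.9 (Chil4) times the soft means. The differences were 2.66 ± 0.45 (SE) for Retnla, 2.70 ± 0.75 for Chil3, 1.70 ± 0.59 for Chil4, 3.12 ± 0.75 for Ear2 and 2.53 ± 0.59 for Rnase2a. None of the 5 was called by limma (adjusted p from 0.164 for Retnla to 1), and 0.0447% of genes were called in either direction. All 5 had an unadjusted p under 0.05, as did 295 of the 11194 genes. Each gene was higher in both KO stiff libraries than in both KO soft libraries, as were 13.6% of genes. Without the 3 libraries at odds with their label, which leaves 1 library in each of these groups, the differences were 1.52 (Chil4) to 3.10 (Retnla), with none called.

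IL-4 and stiffness were also compared directly, without use of the soft libraries, which the comparisons above share as controls. Averaged over the genotypes, the stiff gel differed from soft+IL-4 by -0.58 ± 0.32 (SE) for Retnla, -0.37 ± 0.53 for Chil3, -0.25 ± 0.42 for Chil4, -0.062 ± 0.53 for Ear2 and -0.43 ± 0.42 for Rnase2a. None of the 5 was called by limma, none had an unadjusted p under 0.05, and 0.179% of genes were called in either direction. These averages join genotypes that moved apart. In WT all 5 differences were positive, from 0.88 ± 0.45 for Retnla to 1.16 ± 0.59 for Chil4, and 0 of 5 were called or had an unadjusted p under 0.05, beside 0% of genes called and 557 with such a p. Without WT stiff 1 they shrank to between -0.20 (Chil3) and 0.15 (Retnla), and without WT stiff 2 they grew to between 1.60 (Retnla) and 2.40 (Ear2). The direction in WT therefore rested on WT stiff 1 for Chil3, Chil4, Ear2 and Rnase2a.

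In KO all 5 were lower in the stiff gel than with IL-4, and the KO soft+IL-4 means were 2.29 (Ear2) to 4.10 (Retnla) times the KO stiff means. Retnla fell by 2.04 ± 0.45 (SE) on the log2 scale (limma, adjusted p = 0.0382) and was the 1 gene called, beside 0.491% of genes called lower. The other 4 differed by -1.27 ± 0.75 (Ear2) to -1.86 ± 0.59 (Rnase2a) and were not called (adjusted p from 0.135 to 0.453). The call of Retnla was lost without the filter on low values (adjusted p = 0.0689) and on leaving out any of the 4 libraries, at differences between -2.06 and -2.01. With only the KO soft+IL-4 and KO stiff libraries in the fit, 4 of the 5 were called. The share of all genes called in that fit was not taken, so this count does not set the members apart.

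**Figure D3:**
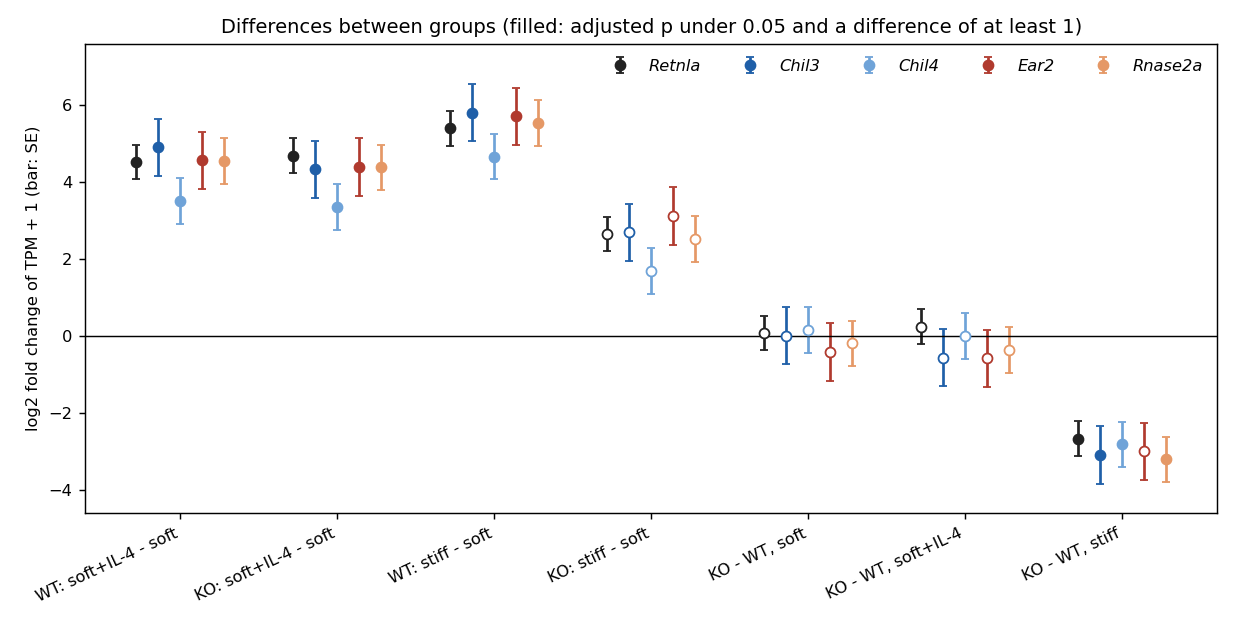
Difference in log2(TPM + 1) of each gene in 7 comparisons, with bars for 1 standard error of the limma fit and filled points for genes called. The 5 points lie at 3.36 to 4.91 for IL-4 in both genotypes and at 4.67 to 5.81 for the stiff gel in WT. The points for the stiff gel in KO (1.70 to 3.12) are open. The genotypes differ by a call in the stiff gel only. There all 5 points are negative (-2.67 to -3.21) and 4 are filled, beside 0.616% of all genes called lower.

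No difference between the genotypes was detected in the soft gel. The KO soft libraries differed from WT soft by 0.078 ± 0.45 (SE) for Retnla, 0.012 ± 0.75 for Chil3, 0.15 ± 0.59 for Chil4, -0.41 ± 0.75 for Ear2 and -0.19 ± 0.59 for Rnase2a. None was called by limma or had an unadjusted p under 0.05, while 0% of all genes were called and 130 genes had such a p. These values rest on the 2 soft libraries at odds with their label, and without the 3 such libraries they were -0.81 for Retnla, -1.55 for Chil3, -0.070 for Chil4, -1.57 for Ear2 and -1.02 for Rnase2a, with 1 library left per group and none called. In both genotypes each of the 5 genes was higher in the soft library numbered 1 than in that numbered 2, as Camkk2 was.

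With IL-4, KO differed from WT by 0.24 ± 0.45 (SE) for Retnla, -0.56 ± 0.75 for Chil3, -0.00069 ± 0.59 for Chil4, -0.58 ± 0.75 for Ear2 and -0.36 ± 0.59 for Rnase2a. None was called by limma or had an unadjusted p under 0.05, beside 0% of genes called and 232 with such a p. With only the soft+IL-4 libraries in the fit, the adjusted p was 0.00777 for Chil3, 0.0386 for Retnla, 0.0424 for Rnase2a and 0.0684 for Ear2, at differences under the limit of 1. Chil3 was 27.0 and 26.9 TPM per 100 TPM of Retnla in WT soft+IL-4 and 15.8 and 15.0 in KO soft+IL-4. In the other groups the 2 libraries of a group also differed in this ratio, with 26.0 and 15.9 in WT soft, 24.7 and 15.3 in KO soft, 35.7 and 21.1 in WT stiff and 26.8 and 15.4 in KO stiff.

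The effect of IL-4 was also compared between the genotypes as an interaction. The KO effect minus the WT effect was -0.58 ± 1.05 (SE) for Chil3, -0.17 ± 1.06 for Ear2, -0.17 ± 0.84 for Rnase2a, -0.15 ± 0.84 for Chil4 and 0.16 ± 0.64 for Retnla. By limma 0 of 5 were called or had an unadjusted p under 0.05, and 0% of genes were called, with 165 at such a p. For Chil3 and Ear2 the standard error exceeded the difference itself, as it did for the other 3.

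In the stiff gel the genotypes lay apart. WT means were 7.17 times the KO means for Retnla, 10.9 for Chil3, 11.7 for Chil4, 10.7 for Ear2 and 12.2 for Rnase2a. The differences on the log2 scale were -2.67 ± 0.45 (SE, adjusted p = 0.0106) for Retnla, -3.10 ± 0.75 (adjusted p = 0.0472) for Chil3, -2.82 ± 0.59 (adjusted p = 0.028) for Chil4 and -3.21 ± 0.59 (adjusted p = 0.0157) for Rnase2a, by limma. Ear2, at -3.00 ± 0.75, missed the threshold (adjusted p = 0.0539). Hence 4 of the 5 were called lower in KO, compared with 0.616% of genes, and for all 5 both WT stiff libraries lay above both KO stiff libraries, as they did for 17.8% of genes.

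This difference depended on single libraries. Without WT stiff 1 it was -1.95 for Retnla, -2.00 for Chil3, -1.65 for Chil4, -1.75 for Ear2 and -2.09 for Rnase2a, with 3 of the 5 called (Retnla, Chil4 and Rnase2a). Without KO stiff 1, which has the Camkk2 level of a WT library, the differences were -2.64 to -3.53 and none was called (adjusted p from 0.08 to 0.152). Without KO stiff 2 they were -2.45 to -3.10, with none called either. With only the 4 stiff libraries in the fit none was called, and without the 3 libraries at odds with their label none was called, at differences of -2.64 to -3.53. Without WT stiff 2 the differences grew to between -3.39 (Retnla) and -4.33 (Rnase2a). The direction was the same in each of these fits, but the fit of only the 4 stiff libraries keeps the differences of the main fit. The call of Chil3 was also lost with a pseudocount of 0.1, with median-of-ratios scaling and without the filter on low values, which took that of Chil4 too. KO stiff 1 was 0.963 times KO stiff 2 for Retnla, 1.18 for Rnase2a, 1.68 for Chil3, 1.95 for Chil4 and 2.12 for Ear2.

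The interaction of genotype with stiffness tested whether the rise from soft to stiff gel was smaller in KO. It was -2.75 ± 0.64 (SE, adjusted p = 0.104) for Retnla, -3.11 ± 1.05 (adjusted p = 0.28) for Chil3, -2.97 ± 0.84 (adjusted p = 0.178) for Chil4, -2.59 ± 1.06 (adjusted p = 0.404) for Ear2 and -3.02 ± 0.84 (adjusted p = 0.171) for Rnase2a, by limma. None of the 5 was called, although all 5 had an unadjusted p under 0.05, as did 1219 genes, and 0.67% of genes were called in either direction. Without WT stiff 1 the values were -1.34 (Ear2) to -2.02 (Retnla), and without WT stiff 2 they were -3.47 (Retnla) to -4.21 (Chil3). Without the 3 libraries at odds with their label they were -1.84 for Retnla, -1.92 for Chil3, -3.11 for Chil4, -1.96 for Ear2 and -2.31 for Rnase2a, and none was called (adjusted p = 0.998 for each). Sums of 3 marker lists also set WT stiff 1 apart, each carried by 1 or 2 genes. The neutrophil list, 12 of 14 measured, summed to 220 TPM there, mostly Csf3r (122 TPM) and Mmp8 (71.1 TPM), and to 124 to 166 TPM in the other libraries. The dendritic cell list, all 10 measured, summed to 326 TPM there and to 662 to 880 TPM elsewhere, led by Bst2, while its members Ccr7 (19.1 TPM) and Clec9a (0.744 TPM) were highest in WT stiff 1. The list for T cells or type 2 innate lymphoid cells, 7 of 11 measured, summed to 175 TPM there, of which 168 TPM was Il7r, and to 95.2 to 142 TPM elsewhere. Their part in the result was not tested.

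Summed over the 5 genes, transcripts made up 0.0283% to 0.0587% of a library in the soft gel, 0.993% to 1.05% with IL-4 in either genotype, 3.34% and 1.04% in WT stiff and 0.281% and 0.259% in KO stiff. Retnla supplied most of each sum. The order of the genes by TPM was the same in all 12 libraries, with Retnla first, followed by Chil3, Rnase2a, Ear2 and Chil4.

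The relatives of the 5 genes were then examined from lists of the 3 families. Besides the members, the analysed genes of the RNase A list were Ear1, Ear10, Rnase2b and Ang2, at 0 in most libraries and at most 4.03 TPM, and Rnase4, Rnase6, Ang and Rnh1, which were expressed throughout. Rnase6, an RNase A gene expressed by myeloid cells, had levels in WT of 9.12 and 14.7 TPM (soft), 57.5 and 51.2 TPM (soft+IL-4) and 52.2 and 49.3 TPM (stiff). Its levels in KO were 17.9 and 15.8 TPM (soft), 56.2 and 56.7 TPM (soft+IL-4) and 24.8 and 27.9 TPM (stiff). Its 2 WT stiff libraries lay close together, whereas those of each member differed by 2.72 times or more. Its interaction of genotype with stiffness was called (-1.42 ± 0.25, SE, limma adjusted p = 0.0353, and -1.38 without WT stiff 1). The interaction joins a lower level in KO stiff than in WT stiff (-0.92 ± 0.18) and a higher level in KO soft than in WT soft (0.50 ± 0.18). Neither of these was called. It also uses the 3 libraries at odds with their Camkk2 label, and its value without them was not taken.

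Rnase4 and Ang, neighbouring genes of which Ang encodes angiogenin, were high in WT stiff 1 alone, at 533 and 116 TPM, and reached at most 77.4 and 26.4 TPM elsewhere. Averaged over genotypes, Ang was called higher in the stiff gel (1.94 ± 0.48, SE, limma adjusted p = 0.0441, and 1.31 ± 0.28, adjusted p = 0.0152, without WT stiff 1), while Rnase4 was not (adjusted p = 0.177). Rnh1, which encodes the cytosolic ribonuclease inhibitor, was 383 to 636 TPM in all libraries and was not called for IL-4 (0.48 ± 0.14) or for stiffness (0.14 ± 0.14). Of the 7 genes tested from the RNase A list, which holds the inhibitor gene Rnh1 too, 3 were called higher with IL-4 (Ear2, Rnase2a and Rnase6). In the stiff gel 4 were called higher (these and Ang), and none was called lower in either comparison. Over all genes tested, 1.87% were called higher with IL-4 and 0.75% in the stiff gel. Ear2 and Rnase2a in these counts are members, and members and lists were chosen with earlier results of these data known.

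Among chitinase-like genes, Chil1 reached at most 0.23 TPM and Ovgp1 at most 0.759 TPM. Chid1 (9.04 to 15.0 TPM) and Ctbs, which encodes the lysosomal chitobiase (5.71 to 14.6 TPM), were expressed in all libraries and were not called in either averaged comparison. Of the 4 chitinase-like genes tested, Chil3 was called higher both for IL-4 and for stiffness, beside 1.87% and 0.75% of all genes. Chil4 met the same limits in both, with the reserve given for it above. Retnla was the only resistin-like gene tested.

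**Figure D4:**
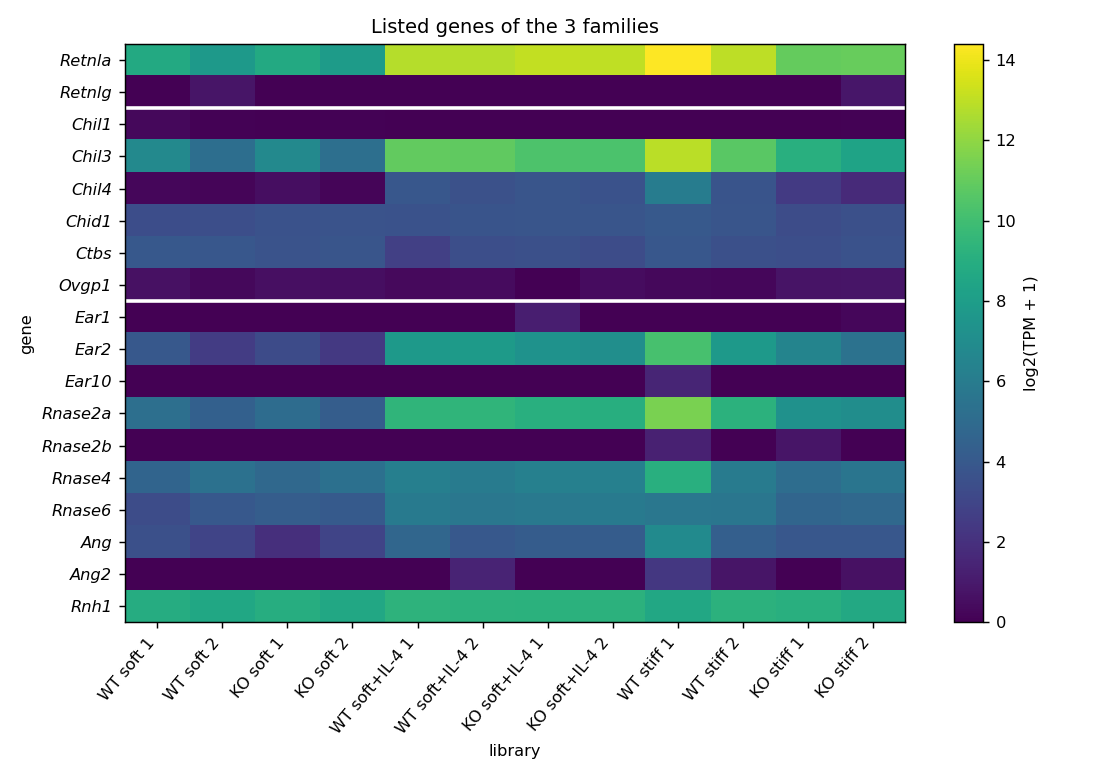
Level of each analysed gene of the resistin-like, chitinase-like and RNase A lists (rows, separated by white lines) in the 12 libraries (columns), as log2(TPM + 1). Retnla, Chil3, Chil4, Ear2 and Rnase2a are darker in the soft libraries than with IL-4 or in the stiff gel. Rnh1 is similar throughout (383 to 636 TPM), and WT stiff 1 is bright for Rnase4 (533 TPM) and Ang (116 TPM) as well.

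Other parts of the IL-4 pathway were taken from a list of 28 genes, of which 25 were tested. The receptor chains and the transcription factor are described first. Il4ra was 23.7 to 40.5 TPM and differed by -0.37 ± 0.14 (SE, limma adjusted p = 0.0871) with IL-4 and by -0.19 ± 0.14 (adjusted p = 0.526) in the stiff gel. Il2rg differed by -0.33 ± 0.19 and -0.47 ± 0.19 and was called in neither. Il13ra1, a chain that pairs with IL-4Rα in the alternative receptor, fell with IL-4 by 1.25 ± 0.15 (adjusted p = 0.000416). Stat6 was 92.3 to 114 TPM and differed by -0.22 ± 0.066 with IL-4, under the limit of 1, and by -0.081 ± 0.066 in the stiff gel.

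The largest rises in this list were those of 2 feedback inhibitors. Socs1, whose product restrains Janus kinases, rose by 4.10 ± 0.22 (SE, limma adjusted p = 4.16e-06) with IL-4 and by 3.12 ± 0.22 (adjusted p = 9.39e-05) in the stiff gel. Cish, of the same family, rose by 3.99 ± 0.26 (adjusted p = 9.83e-06) and by 3.30 ± 0.26 (adjusted p = 0.000139). In KO stiff, compared with WT stiff, Socs1 fell by 1.98 ± 0.32 (adjusted p = 0.00806) and Cish fell by 2.21 ± 0.36 (adjusted p = 0.00962). This comparison includes KO stiff 1, which is at odds with its Camkk2 label. Values without that library were not taken for the genes of this list or of the IL-4 target list below. Over the list, 7 genes were called higher and 1 lower with IL-4, 5 higher and 0 lower in the stiff gel, and 1 higher and 4 lower in KO stiff against WT stiff. The shares of all genes called higher and lower were 1.87% and 2.48% with IL-4, 0.75% and 0.599% in the stiff gel and 1.37% and 0.616% in KO stiff against WT stiff. Without WT stiff 1 the list gave 4 higher and 0 lower in the stiff gel and 0 higher and 4 lower between the genotypes. The list's median differences were -0.073, 0.071 and -0.11, beside -0.050, 0.0017 and -0.016 over all genes.

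A list of 34 other IL-4 target genes, none of them a member, gave 33 tested genes. With IL-4, 22 of these were called higher and 0 lower, and in the stiff gel 17 were called higher and 0 lower (19 and 0 without WT stiff 1), with median differences of 1.54 and 1.34. Of all genes, 1.87% and 0.75% were called higher in these comparisons. Arg1, which encodes arginase-1, rose most in both (4.87 ± 1.37, SE, limma adjusted p = 0.0303, and 5.48 ± 1.37, adjusted p = 0.0459). Its WT stiff libraries lay far apart, at 8850 TPM in WT stiff 1 and 42.6 TPM in WT stiff 2, and without WT stiff 1 its stiff difference was 3.56 ± 0.62 (adjusted p = 0.00574). Mrc1, which encodes the mannose receptor CD206, rose by 1.54 ± 0.26 (adjusted p = 0.00238) and by 1.34 ± 0.26 (adjusted p = 0.0153). In WT alone, 20 of the 33 were called higher with IL-4 and 22 in the stiff gel, beside 1.59% and 1.73% of all genes. In KO alone, 20 were called higher with IL-4 and 2 in the stiff gel, beside 1.56% and 0.0447% of all genes. In KO stiff against WT stiff, 14 were called lower (13 without WT stiff 1), beside 0.616% of all genes.

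Across the 12 libraries the 5 genes ran closely together, with Pearson's r of log2(TPM + 1) from 0.975 to 0.995 over their 10 pairs. These values describe 6 groups that share the same conditions, and WT stiff 1 heads every gene. Among the 7890 other genes reaching 10 TPM, the most like Retnla were Mgl2 (r = 0.997), a macrophage galactose-type lectin, Pdcd1lg2 (0.995), which encodes PD-L2, and Tmem26 (0.992). The genes most like Chil3 were Ear2 (0.995), Rnase2a (0.994) and Slc7a2 (0.994), a transporter of arginine and other cationic amino acids. For Chil4 they were the fibronectin gene Fn1 (0.993), Slc7a2 (0.992) and the phosphatase gene Dusp4 (0.989). Ear2 was most like Chil3 (0.995), Rnase2a (0.992) and Slc7a2 (0.991), and Rnase2a was most like Slc7a2 (0.995), Chil3 (0.994) and Lipn (0.993). Without WT stiff 1, over 11 libraries, these values were 0.988 to 0.996.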

How the data were processed

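RNA of 12 libraries was sequenced after poly(A) selection with strand-specific preparation. The authors deposited 1 table of TPM values for 14098 genes. The submitters' processing notes name Trim Galore 0.6.7 and Salmon 1.4.0 with mm10, whereas the study's methods name snakePipes, STAR and featureCounts, so how the table was made is not settled, nor how reads of close copies were shared out. TPM keeps no read counts, so library depth is unknown and counting error is not given. Groups follow the labels, and 0 columns were left unused.

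The 11194 genes reaching 1 TPM in 2 or more libraries were tested on log2(TPM + 1), which understates changes of low genes, with limma 3.58.1 in R 4.3.3. All 12 libraries entered 1 fit with a mean per group, with Benjamini-Hochberg adjustment per comparison. Calls needed an adjusted p under 0.05 together with a log2 difference of 1 or more in size. The code was tested on simulated data.

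The members and lists were chosen with earlier results of these data known. Named are the 5 members, every measured family gene, the 3 genes most correlated with each member, the IL-4 receptor chains, Stat6 and list genes with the largest rise or fall, Camkk2, and marker lists. Mrc1, and the markers singled out, were picked after their values were seen. Alternatives were a pseudocount of 0.1, no filter, median-of-ratios scaling, only the groups compared, a replicate block, a log2 difference of 2 or more, summed copies, and libraries left out singly or, for the 3 at odds with their Camkk2 label, together. After the data were seen, list counts without WT stiff 1 were added. Upstream sequences and motif shares come from RefSeq (GRCm38.p6), transcripts and coordinates from GENCODE vM21 (GRCm38). No protein sequences were used.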

Additional observations from a re-analysis of the deposited data

Results flagged for a closer look

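Chil4 and Ear2 in WT stiff 1 stood apart from the other 3 stiff libraries of both genotypes. Chil4 was 65.7 TPM there, and its gap to the next library made up 0.843 of the range of the 4 stiff libraries. Ear2 was 1202 TPM, with a gap of 0.856 of the range. Both exceeded the 95% critical value of Dixon's test for 4 samples, which chance exceeds in about 5% of groups, and 15 sets of 4 libraries were examined. Rnase2a (0.826) and Chil3 (0.817) in the same library came close to it, and Retnla was at 0.697. The 4 stiff libraries come from 2 genotypes.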

How the results depend on the processing

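None of the 30 differences called in the report changed direction in 393 refits, while 55 of these refits lost the call. With no filter, only the groups compared, the replicate block or a log2 limit of 2, the difference stays that of the main fit. Its direction could not change in those refits, which are among the 393. Leaving out WT soft 2, KO soft 1 and KO stiff 1 took the number of members called to 1 for stiff against soft in both genotypes, 1 for WT soft+IL-4 against WT soft, 1 for WT stiff against WT soft, 2 for KO soft+IL-4 against KO soft, 0 for KO stiff against KO soft+IL-4 and 0 for KO stiff against WT stiff. These fits have fewer libraries, and a lone library is assumed to vary like the other groups. With only the groups compared the number was 0 for WT stiff against WT soft, 4 for KO stiff against KO soft+IL-4 and 0 for KO stiff against WT stiff. With no filter it was 0 and 2 for the last 2, where more genes share the adjustment. Leaving out single libraries gave 0 to 4 for WT stiff against WT soft+IL-4 (4 without WT stiff 2), 2 to 5 for KO soft+IL-4 against KO soft, 0 to 0 for KO stiff against KO soft+IL-4, 0 to 5 for KO stiff against WT stiff and 0 to 5 for the interaction with stiffness. With close copies summed, Ear2 together with Rnase2a and other Ear genes passed the threshold in KO stiff against WT stiff (adjusted p = 0.0233). A pseudocount of 0.1, median-of-ratios scaling and a log2 limit of 2 left every number of members called within 1.5 times. The replicate block raised the interaction with stiffness from 0 to 1 (Retnla, adjusted p = 0.0452) and KO stiff against WT stiff from 4 to 5. The numbers were not taken to pair the samples, since deviations of same-numbered libraries correlated at -0.053 to 0.31 and not above 0.1 in every pair, but the 3 pairs among WT soft, KO soft and KO stiff lay at 0.283 to 0.314, and a partial pairing was not tested. Differences that were not called changed sign in 38 of 533 refits, which again include the kinds in which the sign could not change. Without single libraries, stiff against soft+IL-4 ran from -0.92 to 0.18 for Chil3, -0.84 to 0.33 for Chil4, -0.69 to 0.57 for Ear2 (0.20 without KO stiff 2) and -0.99 to 0.13 for Rnase2a, and in WT from -0.20 to 2.00, -0.010 to 2.33, -0.11 to 2.40 and -0.13 to 2.11. For KO soft against WT soft the limits were -0.39 and 0.54 (Retnla), -0.80 and 0.82 (Chil3), -0.031 and 0.34 (Chil4), -1.13 and 0.31 (Ear2), and -0.61 and 0.23 (Rnase2a). KO soft+IL-4 against WT soft+IL-4 ran from -0.17 to 0.17 for Chil4. For the interaction with IL-4 they were -0.30 and 0.63 (Retnla), -1.38 and 0.23 (Chil3), -0.34 and 0.031 (Chil4), -0.89 and 0.54 (Ear2), and -0.59 and 0.25 (Rnase2a). Without the 3 libraries, KO soft against WT soft was -0.81 for Retnla, -1.55 for Chil3 and -0.070 for Chil4, and the interaction with IL-4 was 0.99 for Chil3, 0.069 for Chil4, 0.99 for Ear2 and 0.66 for Rnase2a. Chil3 in KO soft against WT soft was -0.00098 with median-of-ratios scaling. The share of all genes called was taken for the main fit and the fit without WT stiff 1 only, so the other numbers of members called have no such share beside them. The causes were not tested.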
